A study of Homo sapiens with 10 samples.

Results

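A set of 52 genes induced by type I interferon was followed in MV4-11 cells with and without a CRISPR/Cas9 knockout of IRF8, a transcription factor of the interferon regulatory factor family. The members were listed by symbol and looked up in a table of 19590 genes, where all 52 were found. MV4-11 is a human acute myeloid leukaemia cell line. Gene expression was measured by RNA-Seq in 4 Control libraries, from cells carrying a control vector, and in 4 IRF8 KO libraries, from knockout clones, numbered replicate 1 to 4 in each group (the table heads the Control columns WT). All cells were grown in RPMI with serum and antibiotics, were infected with a lentiviral CRISPR vector and selected with puromycin, and the knockout clones came from single cells after limiting dilution with different guide RNAs. The labels do not say which clone a knockout replicate is, or whether replicates are separate cultures, so that the p-values measure the spread between these libraries, which may be technical.

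Type I interferons (the interferon alphas, interferon beta and a few relatives) bind the IFNAR1 and IFNAR2 receptor chains, which signal through the kinases JAK1 and TYK2. A complex that holds STAT2 and IRF9 then binds the interferon-stimulated response element in the promoters of target genes. The products sense viral nucleic acid, block translation, membrane fusion or assembly, or tag proteins with the ubiquitin-like ISG15. IRF8 itself binds related elements, usually with a partner such as PU.1, and in myeloid cells it is known for monocyte and dendritic cell development.

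The response element is shown for 7 members on which the results turn, namely 4 that rose (IFIT1, IFIT3, ISG15 and HERC5), 2 that fell (IFITM1 and IFITM3) and IFIT5, the IFIT gene that was not called. Each stretch holds the 170 bases before the first start listed by RefSeq, 5′ to 3′ on the strand of the gene (GRCh38.p14), and capitals mark matches on either strand to the response element core, a pair of GAAA repeats with 2 bases of any kind between them.
IFIT1 (chr10:89392453-89392622, plus strand): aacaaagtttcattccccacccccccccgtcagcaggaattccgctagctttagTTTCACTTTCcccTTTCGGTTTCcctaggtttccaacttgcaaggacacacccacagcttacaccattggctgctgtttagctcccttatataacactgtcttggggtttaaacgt
IFIT3 (chr10:89327827-89327996, plus strand): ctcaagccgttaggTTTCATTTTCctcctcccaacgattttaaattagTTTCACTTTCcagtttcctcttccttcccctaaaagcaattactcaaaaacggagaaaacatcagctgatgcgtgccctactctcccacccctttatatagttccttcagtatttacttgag
IFIT5 (chr10:89414398-89414567, plus strand): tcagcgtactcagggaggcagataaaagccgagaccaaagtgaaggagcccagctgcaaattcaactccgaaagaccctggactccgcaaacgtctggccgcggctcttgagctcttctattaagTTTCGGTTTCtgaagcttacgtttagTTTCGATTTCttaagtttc
ISG15 (chr1:1013327-1013496, plus strand): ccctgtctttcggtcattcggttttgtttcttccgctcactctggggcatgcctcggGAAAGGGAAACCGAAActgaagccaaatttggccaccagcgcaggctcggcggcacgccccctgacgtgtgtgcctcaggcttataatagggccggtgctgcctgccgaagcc
HERC5 (chr4:88456949-88457118, plus strand): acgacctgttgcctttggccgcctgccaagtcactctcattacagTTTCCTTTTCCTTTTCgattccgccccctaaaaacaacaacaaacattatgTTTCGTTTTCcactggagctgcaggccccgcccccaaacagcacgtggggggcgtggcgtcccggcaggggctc
IFITM1 (chr11:313870-314039, plus strand): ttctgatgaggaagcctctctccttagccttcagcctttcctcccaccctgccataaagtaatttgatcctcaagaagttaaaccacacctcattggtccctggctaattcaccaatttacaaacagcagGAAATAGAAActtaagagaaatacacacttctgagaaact
IFITM3 (chr11:320861-321030, minus strand): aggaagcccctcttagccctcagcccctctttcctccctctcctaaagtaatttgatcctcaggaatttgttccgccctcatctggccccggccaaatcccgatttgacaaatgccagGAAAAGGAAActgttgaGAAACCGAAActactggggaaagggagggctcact

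The core stands 3 times in the stretch of HERC5, once in that of IFITM1 and 2 times in each of the others, so that it stood in members that rose and in members that fell. A promoter window of 250 bases before to 50 after the start was at hand for 43 of the 52 members, and 29 of them (67.4%) held the core on either strand at any listed start, against 4.19% of 10638 genes tested in the comparison. It was present in 7 of the 9 higher members with a window, in 2 of the 3 lower ones and in 18 of the 29 that were not called. A composite of an ETS and an IRF element (GGAA and GAAA with 2 bases of any kind between them), which can overlap the response element core, was found in 14 of the 43 (32.6%) against 3.62%, and the STAT element (TTC and GAA, 3 bases apart) in 10 (23.3%) against 8.72%. These are matches of letters and not binding sites.

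Libraries held between 39560072 and 65519047 reads on genes, and no pair of libraries had identical values. IRF8 RNA stood at 36891, 15192, 43016 and 22535 normalized counts (read counts divided by a size factor of the library) in Control replicates 1 to 4 and at 6377, 2401, 12903 and 7819.7 in IRF8 KO. The groups did not overlap and the knockout mean was 0.251 times the control mean (log2 fold change -2.11 ± 0.51 SE, limma, adjusted p = 0.022), a call that was lost without Control replicate 1, Control replicate 3 or IRF8 KO replicate 1 (adjusted p up to 0.059). FLT3, a receptor kinase of myeloid progenitors, was between 39931 and 66773 counts over all libraries. T cell genes CD3E and CD3D did not exceed 1 normalized count, and HBB, MS4A1 and COL3A1 were at 0 in every library. Other lymphocyte markers were detected. The 6 T and NK markers found summed to 2546 to 3097 counts in Control and 1058.5 to 2690 in IRF8 KO. Only 1 of them was tested, and it was not called (log2 fold change -0.73). The 4 B cell markers summed to 193 to 512 and 167 to 923 counts, and of 2 tested 1 fell (log2 fold change -1.24). Among 11 myeloid markers, MPO, ITGAM and CD4 rose, and MEIS1 fell by a call kept in 1 of 8 fits without 1 library (limma adjusted p up to 0.079). The summed counts of the list were 84827 to 98324 in Control and 123876 to 358786 in IRF8 KO, and without LYZ, which alone held 248604 counts in IRF8 KO replicate 1, they were 70069.9 to 96590.2 and 95362 to 110666. Of the epithelial markers, KRT8 and KRT18 fell, KRT18 from 451 to 539 counts in Control to 4.26 to 9.48 in IRF8 KO. Whether these shifts in markers have a part in the changes below was not tested, and in bulk RNA fewer cells of a kind and less RNA per cell cannot be told apart.

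The type I interferon-stimulated genes did not move as one in IRF8 KO. Of the 49 members that averaged 10 normalized counts or more over the libraries, 11 rose (22.4%) and 5 fell (10.2%), while among all 13110 genes tested 8.65% rose and 9.56% fell (limma on log2(normalized count + 1), Benjamini-Hochberg adjusted p below 0.05). A change of at least 2-fold was also reached by 9 of the higher members (4.72% of all genes) and 4 of the lower (6.05%). Values of the groups did not overlap for 12 members that were higher in the knockout (12.3% of all genes) and 6 that were lower (13% of all genes). The lower members thus stood near the background and the higher ones above it. Because the list was chosen with earlier results of these data known, this is a description, and no test was made over the list. The median log2 fold change of the 49 members was 0.24, against -0.00094 for all genes. The remaining 3 members, ZBP1, IFI44L and EPSTI1, stayed below the limit, with highest values of 1.07, 14.7 and 18.1 counts, and were not tested. Same-numbered libraries of the 2 groups deviated together, but so did others within replicates 1 and 3 and within 2 and 4. Pairing by number is therefore not shown. With the replicate number as a block 20 members rose and 9 fell, of 1857 and 1912 genes in all. Values with the block are given below beside the main fit, and they rest on this pairing that is not shown.

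**Figure D1:**
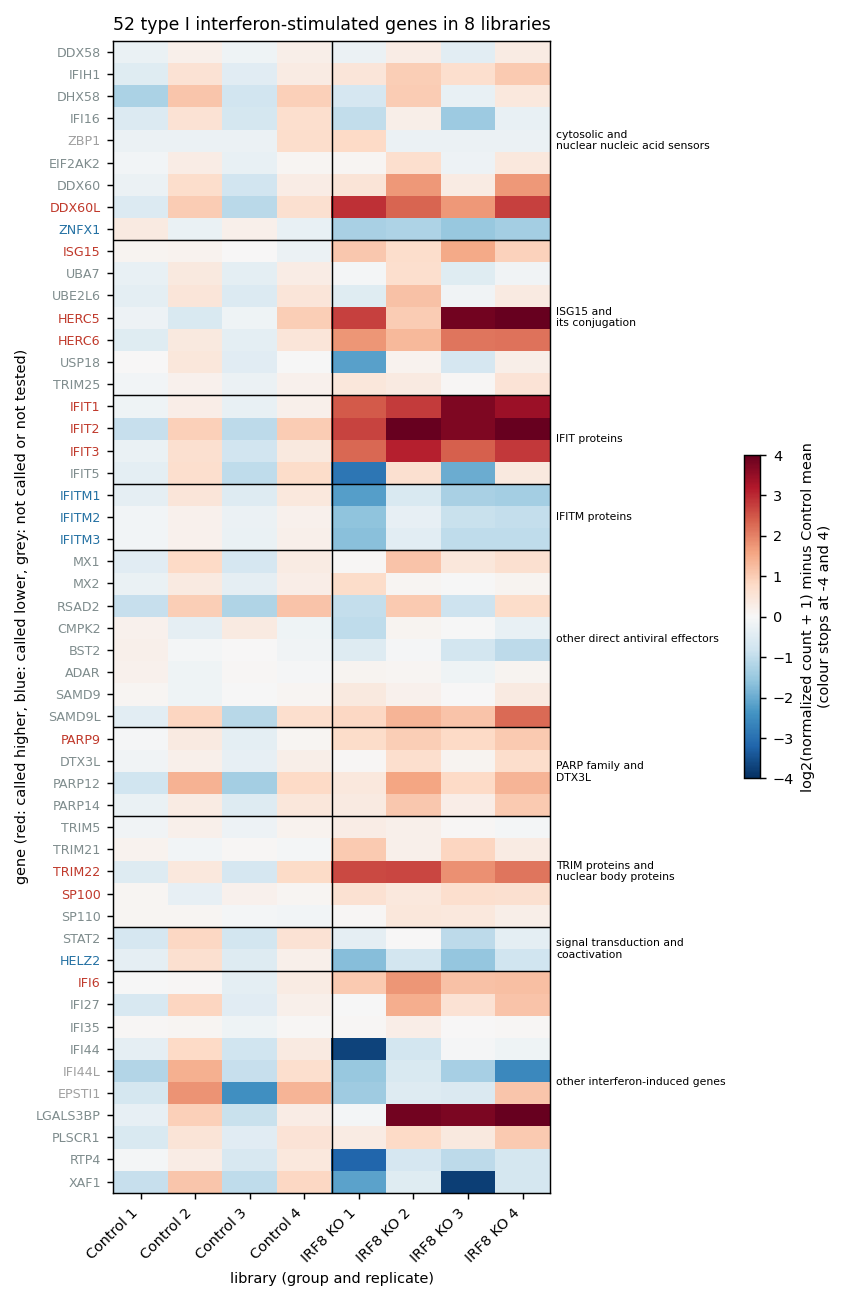
Map of all 52 members (rows, grouped by role) in the 8 libraries (columns); colour gives log2(normalized count + 1) minus the mean of the 4 Control libraries, and names of members called higher are red, of those called lower blue. The IFIT1, IFIT2 and IFIT3 rows are red in all 4 knockout libraries, the IFITM rows are blue there, and within Control most rows are redder in replicates 2 and 4 than in 1 and 3.

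Strongest among the changes was that of the IFIT genes, whose products bind foreign RNA and block its translation. Of the 4 members 3 rose and 1 was not called.
IFIT1 was measured at 4.83, 6.90, 4.30 and 6.59 normalized counts in Control replicates 1 to 4 and at 35.2, 44.9, 86.7 and 69.8 in IRF8 KO replicates 1 to 4. Every knockout library was far above the highest control library. The mean ratio was 10.5 (log2 fold change 3.11 ± 0.37 SE, n = 4 per group, limma adjusted p = 0.00073), although the control level rested on few reads.
IFIT2 stood at 10.5, 41.4, 9.66 and 43.3 in Control and at 141, 495, 288 and 559 in IRF8 KO, a mean ratio of 14.1 (log2 fold change 3.90 ± 0.63 SE, limma adjusted p = 0.0035). Replicates 2 and 4 were above 1 and 3 in both groups, and still the lowest knockout library was far above the highest control library.
IFIT3 went from 57.1, 108, 39.7 and 90.4 to 344, 605, 367 and 489.9, a mean ratio of 6.12 (log2 fold change 2.66 ± 0.34 SE, limma adjusted p = 0.0012), again without overlap.
IFIT5, the neighbour of IFIT1 on chromosome 10, had 46.7, 99.2, 30.1 and 103 in Control and 7.46, 95.6, 14.9 and 81.6 in IRF8 KO (log2 fold change -0.96 ± 0.83 SE, limma adjusted p = 0.48). Only the knockout replicates 1 and 3 were below all control libraries. The gene spans of all 4 IFIT members overlap LIPA in RefSeq, and whether the counting used strand was not stated.

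The ISG15 system couples the ubiquitin-like ISG15 to proteins through the E1 enzyme UBA7, the E2 UBE2L6 and ligases such as HERC5, and USP18 takes it off again. Of these 7 members ISG15, HERC5 and HERC6 rose, none fell, and both conjugating enzymes and the protease were not called.
ISG15 was found at 292, 298, 275 and 231 normalized counts in Control and at 581, 449, 773 and 522 in IRF8 KO (ratio 2.12, log2 fold change 1.06 ± 0.20 SE, limma adjusted p = 0.0067). Every knockout library exceeded every control library.
HERC5 reached 62.9, 18.2, 138 and 157 in IRF8 KO from 7.24, 5.18, 7.52 and 17.9 in Control (ratio 9.96, log2 fold change 2.92 ± 0.69 SE, limma adjusted p = 0.019). Here the groups only just failed to overlap, since knockout replicate 2 was next to control replicate 4. The call was lost without IRF8 KO replicate 3 or 4 (adjusted p up to 0.057).
HERC6, a relative of HERC5, rose from 69.2, 130.2, 74.1 and 138 to 337, 239.9, 437 and 444 (ratio 3.54, log2 fold change 1.84 ± 0.31 SE, limma adjusted p = 0.0046).
For UBA7, UBE2L6 and USP18 the log2 fold changes were -0.0076 ± 0.28, 0.23 ± 0.39 and -0.62 ± 0.50 SE. TRIM25, a ubiquitin ligase that acts on RIG-I, had a log2 fold change of 0.36 ± 0.15 SE (limma adjusted p = 0.14, and 0.041 with the replicate block).

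Among 9 nucleic acid sensors and helicases, 1 rose and 1 fell.
DDX60L, a helicase related to the antiviral DDX60, stood at 212, 628, 146 and 489.6 normalized counts in Control and at 2367, 1566, 1051 and 2072 in IRF8 KO (ratio 4.78, log2 fold change 2.43 ± 0.47 SE, limma adjusted p = 0.0083). The lowest knockout library was above the highest control library.
ZNFX1, a helicase that senses viral RNA at mitochondria, fell from 3744, 2384, 3328 and 2353 to 1176, 1218, 1009 and 1121 (ratio 0.383, log2 fold change -1.36 ± 0.17 SE, limma adjusted p = 0.0011). The knockout libraries lay close together and all below the control libraries.
DDX58, which encodes the sensor RIG-I, was at 427, 582, 449 and 606 in Control and at 434, 633, 381 and 642 in IRF8 KO, a log2 fold change of -0.0032 with a 95% interval from -0.51 to 0.50. IFIH1, encoding the sensor MDA5, and DDX60 had log2 fold changes of 0.80 ± 0.28 and 1.08 ± 0.43 SE (limma adjusted p = 0.080 and 0.12, and 0.011 and 0.0049 with the block), and IFIH1 was also called without Control replicate 2. IFI16, a sensor of nuclear DNA, was -0.63 ± 0.44 SE (adjusted p = 0.38, and 0.011 with the block in limma). EIF2AK2, the kinase PKR, and DHX58 were not called in either fit, with log2 fold changes of 0.24 and 0.11.

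TRIM proteins and nuclear body proteins rose or were not called.
TRIM22, a ubiquitin ligase that restricts retroviruses, was at 207, 403, 187 and 509 normalized counts in Control and at 1854, 1917, 1071 and 1333 in IRF8 KO (ratio 4.73, log2 fold change 2.33 ± 0.35 SE, limma adjusted p = 0.0027). The groups were well apart.
SP100, a scaffold of PML nuclear bodies, rose by a smaller factor from a high level, from 5774, 4323, 6073 and 5699 to 8286, 7339, 8561 and 8383 (ratio 1.49, log2 fold change 0.58 ± 0.13 SE, limma adjusted p = 0.017).
TRIM21, an intracellular antibody receptor, did not overlap between groups, with 1341, 1133, 1261 and 1149.6 in Control and 2503, 1415, 2189.7 and 1539 in IRF8 KO, but missed the threshold in the main fit (log2 fold change 0.61 ± 0.19 SE, limma adjusted p = 0.061, 0.015 with the block, and called without IRF8 KO replicate 2). It was called in edgeR (adjusted p = 0.046) and in DESeq2 (adjusted p = 0.013). TRIM5 and SP110 had log2 fold changes of 0.11 and 0.29 and overlapped between groups.
In the PARP family, whose members attach ADP-ribose to proteins, PARP9 rose from 623, 829, 495 and 682 to 1068, 1290.3, 1125 and 1349 (ratio 1.84, log2 fold change 0.89 ± 0.18 SE, limma adjusted p = 0.0084). Its partner DTX3L, whose gene overlaps that of PARP9, and PARP14 were called with the block but not without it (log2 fold changes 0.39 and 0.69, limma adjusted p = 0.029 and 0.0025, against 0.24 and 0.12). PARP12 had a log2 fold change of 1.04 ± 0.60 SE (limma adjusted p = 0.28).

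**Figure D2:**
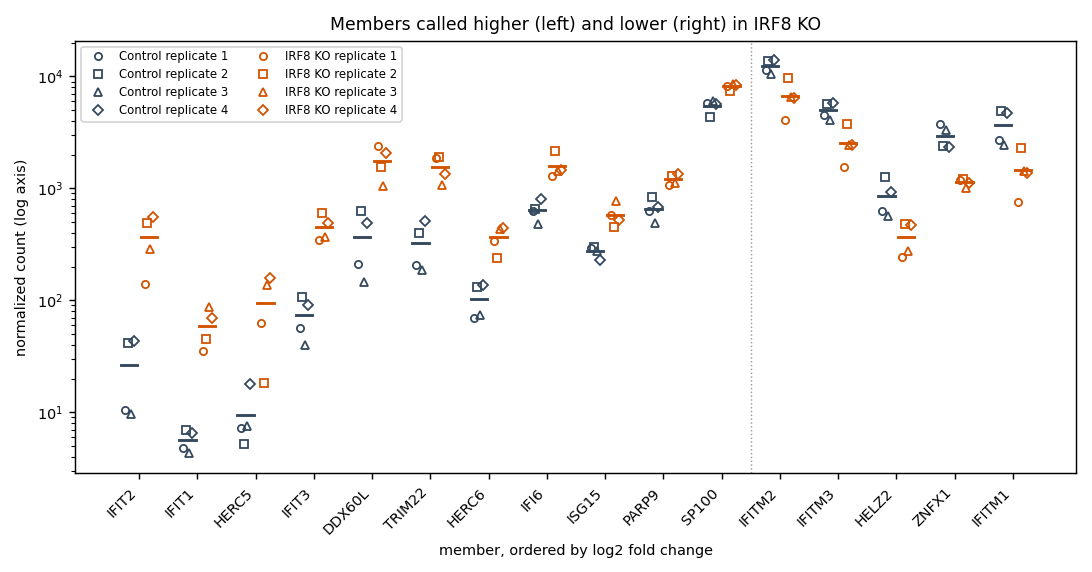
Normalized counts (log axis) of the 11 members called higher and the 5 called lower in IRF8 KO, 1 point per library (symbol by replicate number, dark for Control, orange for IRF8 KO) with bars at the group means. No Control point reaches a knockout point for any of the 16 members, and HERC5 shows the narrowest gap among those that rose.

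Classic antiviral effectors gave no call, although the MX proteins and viperin (RSAD2) are standard markers of the interferon response.
MX1 stood at 56.3, 137, 48.3 and 97.9 normalized counts in Control and at 79.9, 174, 107 and 123 in IRF8 KO (log2 fold change 0.57 ± 0.39 SE, limma adjusted p = 0.36), and MX2 at 372, 574, 354 and 544 and at 757, 479.8, 441 and 482 (log2 fold change 0.23 ± 0.24 SE, adjusted p = 0.58). Both overlapped between groups.
RSAD2 was at 52.3, 198, 43.0 and 222 in Control and at 51.2, 206, 55.5 and 166 in IRF8 KO, with replicates 2 and 4 above 1 and 3 in both groups (log2 fold change -0.0069 ± 0.69 SE). CMPK2, whose gene overlaps that of RSAD2, had a log2 fold change of -0.30 ± 0.28 SE. Log2 fold changes were 0.029 ± 0.12 SE for the RNA editing enzyme ADAR, 0.24 ± 0.13 for SAMD9 and 1.39 ± 0.48 for SAMD9L. BST2, the tetherin that holds budding virions, was -0.59 ± 0.21 SE (limma adjusted p = 0.082). With the block SAMD9L was called higher and BST2 lower (limma adjusted p = 0.0096 and 0.035), and so they were without Control replicate 2 (SAMD9L) and without IRF8 KO replicate 2 (BST2).

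In contrast to the IFIT genes, all 3 IFITM genes fell. They encode small membrane proteins that hinder fusion of virus with the cell membrane.
IFITM1 went from 2713, 4878, 2436 and 4680.4 normalized counts in Control to 757, 2290.1, 1427 and 1360.5 in IRF8 KO (ratio 0.397, log2 fold change -1.37 ± 0.36 SE, limma adjusted p = 0.029). For IFITM2 the values were 11418, 13774, 10462 and 13905 and 4068, 9734, 6602 and 6390.3 (ratio 0.541, log2 fold change -0.94 ± 0.24 SE, limma adjusted p = 0.029). IFITM3 had 4548, 5627, 4081 and 5747 and 1537, 3728, 2463 and 2425 (ratio 0.508, log2 fold change -1.03 ± 0.25 SE, limma adjusted p = 0.023). No knockout library reached a control library for any of the 3, with knockout replicate 2 the highest and replicate 1 the lowest of the knockout libraries each time. The IFITM genes are closely similar neighbours on chromosome 11, so that their counts are uncertain where reads could match more than 1 of them. Their calls were less firm than those of the IFIT genes, since each was lost without Control replicate 2, Control replicate 4 or IRF8 KO replicate 3 (adjusted p up to 0.076), IFITM1 also without IRF8 KO replicate 1 or 4, IFITM2 without Control replicate 1 or IRF8 KO replicate 4 and IFITM3 without IRF8 KO replicate 4.

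HELZ2, a nuclear coactivator, fell as well, from 633, 1269.7, 568 and 924 to 246, 481, 274 and 466 (ratio 0.432, log2 fold change -1.20 ± 0.32 SE, limma adjusted p = 0.034), and was lost without Control replicate 2 or 4 or IRF8 KO replicate 1 or 3 (adjusted p up to 0.087).
HELZ2 and ZNFX1 lie on chromosome 20, where 91.7% of 351 tested genes had a lower mean in IRF8 KO and the median log2 fold change was -0.92. Relative to that median, ZNFX1 had a remaining log2 difference of -0.43 (exact permutation test, two-sided, p = 0.029, the smallest that 4 against 4 libraries can give) and HELZ2 one of -0.27 (exact permutation test, p = 0.46). Of the tested genes of chromosome 20, 20.8% were as low as ZNFX1 and 27.4% as low as HELZ2, so that neither stood apart from the spread of the chromosome. On chromosome 21, with a median of -0.33 over 125 genes, MX1 stood 0.91 and MX2 0.56 above the median of the chromosome (exact permutation test, p = 0.11 and 0.057). The part of the chromosome-wide shifts in these values was not tested.
STAT2, the signal transducer of the type I receptor, had 1339, 3808, 1270.4 and 3150.4 in Control and 1643, 2134, 1024 and 1620.2 in IRF8 KO (log2 fold change -0.45 ± 0.40 SE, limma adjusted p = 0.49). Control replicates 2 and 4 stood above the other libraries.

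Of the remaining interferon-induced genes, IFI6 rose and no other was called.
IFI6, an inhibitor of apoptosis and of flavivirus replication, was at 627, 654, 479 and 798 normalized counts in Control and at 1294, 2142, 1425 and 1459 in IRF8 KO (ratio 2.47, log2 fold change 1.30 ± 0.21 SE, limma adjusted p = 0.0034). The groups did not overlap.
IFI27 had 16.9, 49.2, 19.3 and 31.1 in Control and 26.6, 74.6, 40.6 and 60.0 in IRF8 KO (log2 fold change 0.79 ± 0.44 SE, limma adjusted p = 0.26).
LGALS3BP, which encodes a secreted galectin ligand and is named here after its values were seen, stood at 440.0, 1069.6, 297 and 686 in Control and at 525, 8158, 7525 and 10203 in IRF8 KO. Knockout replicates 2, 3 and 4 were far above every control library, while replicate 1 lay within the control range. The log2 fold change was 2.93 ± 0.90 SE (limma adjusted p = 0.055), and without IRF8 KO replicate 1 it was 3.94 (adjusted p = 0.0011). The block gave an adjusted p of 0.014 in limma, edgeR gave 0.020 and DESeq2 0.00031.
XAF1, an apoptosis factor, had the lowest log2 fold change of all tested members (-1.77 ± 0.79 SE) but a wide spread, with 2158, 8817, 2012 and 7352 in Control and 936, 2957, 301 and 2512 in IRF8 KO (limma adjusted p = 0.16, and 0.0022 with the block). RTP4 was lower in every knockout library without passing the test (log2 fold change -1.40 ± 0.55 SE, limma adjusted p = 0.12, and 0.047 with the block). Log2 fold changes of PLSCR1, IFI35 and IFI44 were 0.64 ± 0.30, 0.10 ± 0.13 and -1.16 ± 0.81 SE, and with the block PLSCR1 was called (limma adjusted p = 0.010).

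**Figure D3:**
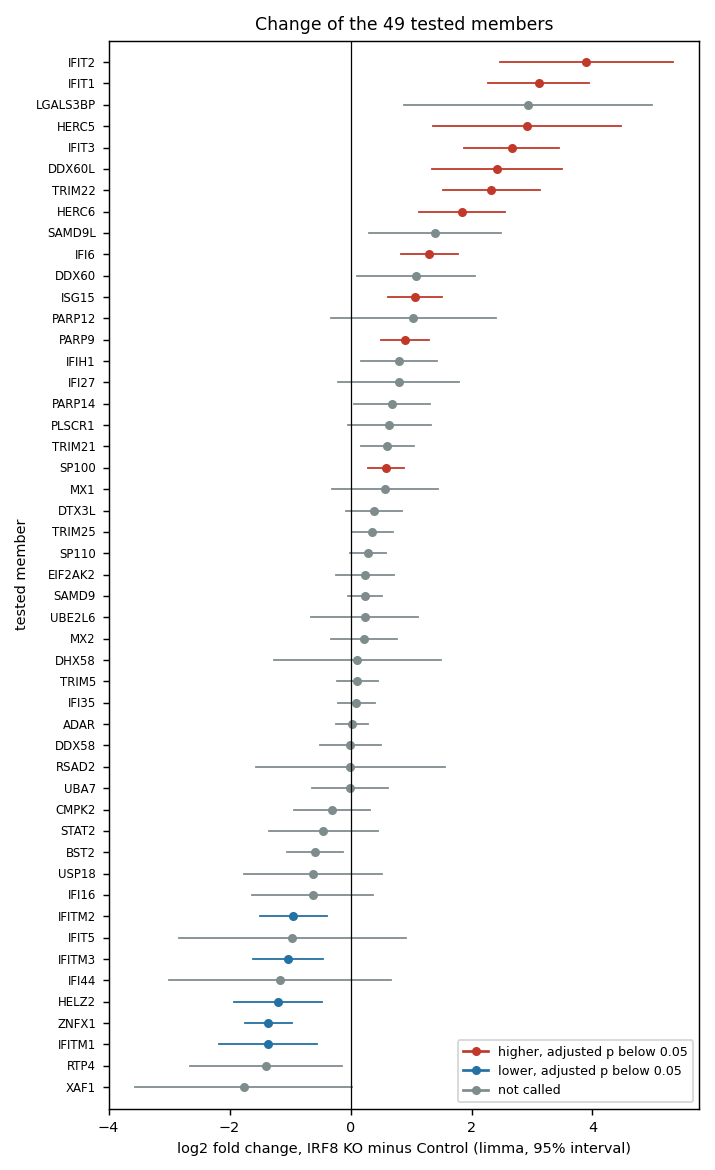
Log2 fold change (IRF8 KO minus Control, limma) of the 49 tested members with 95% intervals, ordered by size; red members were called higher and blue ones lower at an adjusted p below 0.05. LGALS3BP stands near the top with a wide interval, and the intervals of most grey members include 0.

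The rise was uneven over the members. By sign 32 members were higher and 17 lower in IRF8 KO, and the mean log2 fold change of the 49 was 0.45. The 6 members with the largest log2 fold changes (IFIT2, IFIT1, LGALS3BP, HERC5, IFIT3 and DDX60L) held 50.0% of the summed positive log2 fold change, and without them the mean was 0.096, a drop that leaving out the largest values brings by construction, and the median 0.23. Of the 33 tested members that were not called, 21 were higher and 12 lower by sign. In counts the picture was another one, because abundant members weigh more. Summed over the 52 members, Control libraries had 114575 ± 19733 and IRF8 KO libraries 115974 ± 21378 normalized counts (mean ± SD, n = 4), a difference far below the spread. The 34 members with a higher knockout mean gained 25639.9 counts in sum, of which LGALS3BP held 23.3%, PARP14 10.6%, SP100 10.4% and TRIM25 8.04%. The 11 called members together held 32.0% of the gain, led by SP100, DDX60L (5.44%) and TRIM22 (4.75%). The 18 members with a lower mean had a summed difference of -24241 counts, of which IFITM2 held 23.5%, IFI16 18.7%, XAF1 14.1% and BST2 10.3%.

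Replicates 1 and 3 were also set against replicates 2 and 4, a split that was known from earlier results of these data and is given as a description. In Control the members were higher in replicates 2 and 4 by a median log2 difference of 0.72, and in IRF8 KO by 0.61, while the median over all genes was 0.025 and 0.013. Both replicates 2 and 4 were above both replicates 1 and 3 in each group for 25 of 49 members (18.9% of all genes), and below for TRIM21 alone (19.3% of all genes). A difference of at least 2-fold in both groups was reached by 9 members (4.11% of all genes), namely DHX58, IFI16, IFIT2, IFIT5, RSAD2, IFI27, IFI44, LGALS3BP and XAF1. None was lower to that extent in both groups (0.854% of all genes). Taken singly, Control had 17 members at least 2-fold higher (10.8% of all genes) and IRF8 KO 13 (6.17% of all genes).
RSAD2 had the log2 differences 2.12 in Control and 1.78 in IRF8 KO, XAF1 1.95 and 2.36, and IFIT2 1.97 and 1.38. For DDX60L the differences were 1.65 in Control and 0.19 in IRF8 KO and for TRIM22 1.20 and 0.18, and the genotypes were not called different in this (limma interaction term, adjusted p = 0.26 and 0.30). IRF8 went the other way, with log2 differences of -1.11 in Control and -1.07 in IRF8 KO. Control replicates 2 and 4 were both below 1 and 3. The knockout sets overlapped, with 6377 and 12903 counts in replicates 1 and 3 and 2401 and 7820 in 2 and 4. What sets the replicates apart is not given in the labels, and its part was not tested.

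**Figure D4:**
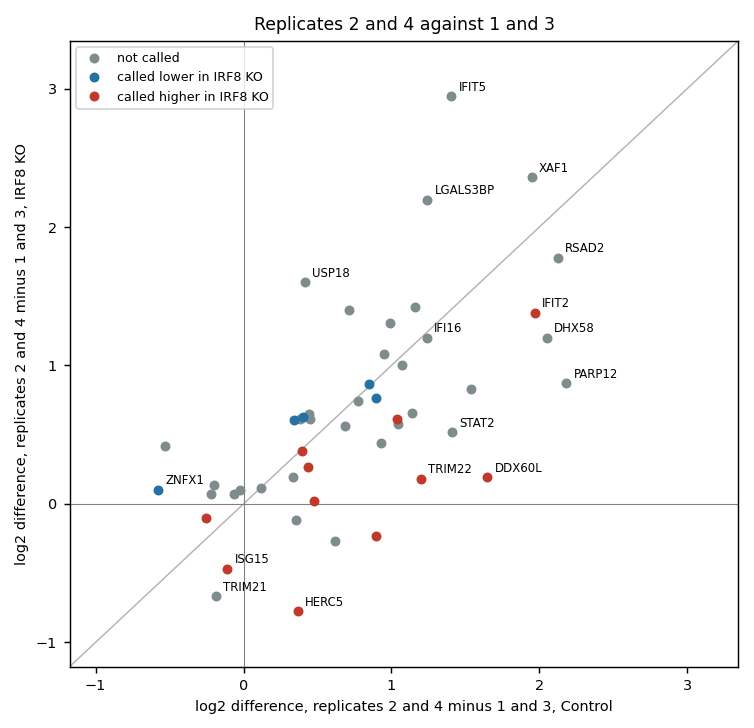
Log2 difference of replicates 2 and 4 minus 1 and 3 for the 49 tested members, Control on the horizontal and IRF8 KO on the vertical axis, coloured by the call in the knockout comparison, with the line of equal values. Most points lie above 0 on both axes, and DDX60L and TRIM22 lie near 0 on the vertical axis.

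The knockout difference was also taken within each set of replicates. Its median over the members was 0.35 in replicates 1 and 3 and 0.31 in replicates 2 and 4, and 41 of 49 members (83.7%, against 71.5% of all genes) had the same sign in both. Single members differed more, such as PARP12 with 1.69 and 0.38 and IFIT5 with -1.73 and -0.19. At least 2-fold higher in both sets were 10 members (4.44% of all genes), namely IFIT1, IFIT2, IFIT3, HERC5, HERC6, DDX60L, TRIM22, IFI6, SAMD9L and LGALS3BP, and at least 2-fold lower were 6 (6.51% of all genes), namely ZNFX1, IFITM1, HELZ2, IFI44, RTP4 and XAF1. IFIT1 differed by 3.34 in replicates 1 and 3 and by 2.88 in 2 and 4 on the log2 scale, IFI6 by 1.31 and 1.29, and DDX60L by 3.16 and 1.70. No member and no gene of all tested was called different between the sets in limma (interaction term, adjusted p at least 0.17 for the members). With 2 libraries per set and group, a lack of calls does not show a lack of difference. At an unadjusted p below 0.05 the interaction held for 10 members (20.4%) and 2083 genes (15.9%), and edgeR gave 11 members at that level and no call.

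**Figure D5:**
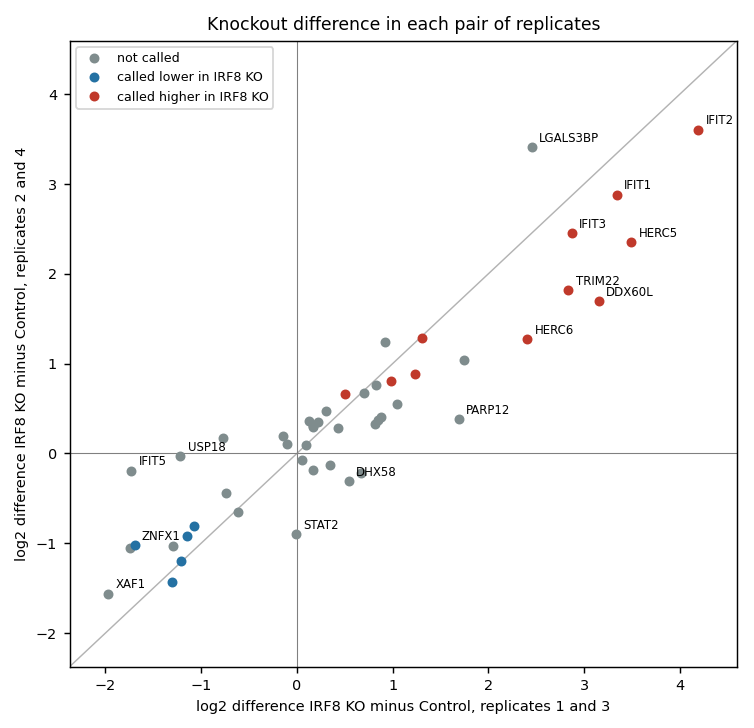
Log2 difference IRF8 KO minus Control within replicates 1 and 3 (horizontal axis) and within replicates 2 and 4 (vertical axis) for the 49 tested members, with the line of equal values and colours by the call. IFIT1, IFIT2, IFIT3 and HERC5 stand at the upper right of both axes, and DDX60L, TRIM22 and HERC6 lie below the line.

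Interferon itself was hardly detected. Of 17 type I interferon genes 7 were at 0 in every library and none exceeded 3.20 normalized counts, and IFNG was at 0 throughout. Of 105 other interferon pathway genes in the table, these ligands included, 73 were tested, of which 6 rose and 10 fell (8.65% and 9.56% of all genes), with a median log2 fold change of -0.057.
Of the receptor chains, IFNAR1 had 6988, 5813, 7133 and 5348 counts in Control and 6092, 4294, 4999.6 and 4534 in IRF8 KO (log2 fold change -0.35 ± 0.15 SE, limma adjusted p = 0.16, and 0.044 with the block). IFNAR2 fell, from 2115, 1307, 2178 and 1505 to 1300.1, 895, 1165 and 861 (log2 fold change -0.74 ± 0.21 SE, limma adjusted p = 0.044), a call kept in only 2 of 8 fits that left out 1 library (adjusted p up to 0.12). Both lie on chromosome 21.
IRF9, the DNA-binding partner of STAT2, was at 20.9, 31.9, 15.0 and 26.4 in Control and 7.46, 22.9, 13.5 and 14.8 in IRF8 KO (log2 fold change -0.69 ± 0.40 SE, adjusted p = 0.28 in limma). IRF7, which amplifies interferon production, had a log2 fold change of -0.59 ± 0.22 SE (limma adjusted p = 0.095).

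Within the OAS family, OAS1, OAS2 and OAS3 activate RNase L on sensing double-stranded RNA. Of the family members on chromosome 12, 2 rose and none fell by the test.
OAS3 stood at 66.0, 131, 27.9 and 66.8 normalized counts in Control and at 935, 1600.0, 1058 and 1355 in IRF8 KO (ratio 17, log2 fold change 4.23 ± 0.42 SE, limma adjusted p = 0.00036), and OAS1 at 103, 292, 66.6 and 176 and at 627, 768, 974 and 671 (ratio 4.76, log2 fold change 2.44 ± 0.42 SE, adjusted p = 0.0047). Both rose without overlap.
OAS2, named after its values were seen, was lower in every knockout library, with 142, 171, 104 and 270.2 in Control and 0, 60.2, 14.9 and 35.4 in IRF8 KO (log2 fold change -3.57 ± 1.14 SE, limma adjusted p = 0.061, and 0.020 with the block). OASL, also named after its values were seen, was lower in every knockout library as well, with 33.8, 35.4, 29.0 and 42.4 and 2.13, 18.2, 16.3 and 19.7 (log2 fold change -1.57 ± 0.60 SE, limma adjusted p = 0.11).
Among the sensors, TLR3 rose from 3.22, 8.63, 0 and 4.71 to 22.4, 62.1, 23.0 and 67.9 (log2 fold change 3.34 ± 0.73 SE, limma adjusted p = 0.014), while TLR7, which binds single-stranded RNA in endosomes, fell from 153, 915, 129 and 821 to 5.33, 58.3, 9.48 and 65.9 (log2 fold change -3.95 ± 0.97 SE, adjusted p = 0.023). The TLR7 groups did not overlap, but the call was lost without Control replicate 2 or 4 or IRF8 KO replicate 1 or 3 (adjusted p up to 0.066).
SAMHD1, which depletes nucleotides needed for viral DNA synthesis and lies on chromosome 20, fell from 8919.8, 4535, 8619 and 5719.9 to 2039.6, 955, 1293 and 893 (log2 fold change -2.45 ± 0.31 SE, limma adjusted p = 0.0011). SIGLEC1, on the same chromosome, had 43.4, 29.3, 40.8 and 33.9 in Control and 5.33, 8.60, 12.2 and 20.7 in IRF8 KO (log2 fold change -1.71 ± 0.41 SE, limma adjusted p = 0.021, lost without Control replicate 1 or 3).
Of the genes tied to interferon gamma, CIITA, the master regulator of MHC class II genes, went from 2013, 2009, 1962 and 1889 to 135, 1297, 195 and 259 (log2 fold change -2.68 ± 0.60 SE, limma adjusted p = 0.016, lost without IRF8 KO replicate 3 and in edgeR). The guanylate-binding protein gene GBP4 went from 514, 766, 416 and 974 to 2.13, 66.9, 52.8 and 172 (log2 fold change -4.08 ± 1.07 SE, limma adjusted p = 0.030), kept in 3 of 8 fits without 1 library. The knockout libraries of both were below all control libraries. The other pathway genes that rose (RNASEH2B, PHF11 and FCGR1A) or fell (CGAS, MAVS, PTPN1 and PTPN6) changed by less than 2-fold, and RNASEH2B kept its call in 4 of 8 fits without 1 library. Of the 10 pathway genes that fell, 4 lie on chromosome 20, namely SAMHD1, SIGLEC1, MAVS and PTPN1, and the log2 fold changes of MAVS (-0.81) and PTPN1 (-0.70) were no lower than the median of that chromosome (-0.92).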

How the data were processed

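RNA-Seq was done on poly(A) RNA with a stranded kit from 4 Control and 4 IRF8 KO libraries of MV4-11 cells. Per the study's methods, the authors aligned the reads to the GENCODE transcriptome with RNA-Star, counted them per gene with featureCounts and divided them by DESeq2 size factors. The submitters' processing notes name hg19 and hg38 without a role. The deposited values are normalized counts, a signal per gene that is not whole. In each library 100% of them were whole multiples of 1 step (within 0.01 reads), which gave back the reads, between 39560072 and 65519047 per library. The other deposited table holds the authors' own fold changes and p-values and was not used, and 0 columns of per-sample values were left out. The 2 ChIP-Seq samples were not analysed here.

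Genes averaging 10 normalized counts or more were tested on log2(value + 1), which understates the change of low genes, with limma 3.58.1 (trend and empirical Bayes, all 8 libraries, R 4.3.3) and Benjamini-Hochberg adjustment over 13110 genes. On simulated counts the fit was tested first. Same-numbered libraries of the 2 groups deviated together (correlations 0.37, 0.48, 0.45 and 0.50). Differently numbered ones did so to a like degree within replicates 1 and 3 (0.47 and 0.41) and within 2 and 4 (0.40 and 0.41). The split into these sets is thus seen, while pairing by number is not shown. DESeq2 1.42.0 and edgeR 4.0.16, run on the reads given back, other scalings, pseudocounts and filters, and leaving out each library were the alternatives.

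Members and lists were chosen with earlier results of these data known. Named in full are members called at 2-fold or more, the 3 called members with the largest rise in counts, ISG15, IFIT1, MX1, IFI27, IFI6, STAT2, DDX58, members on chromosomes 20 and 21, pathway genes called at 2-fold or more, and OAS1, IRF9, IRF7, IFNAR1, IFNAR2 and IRF8. Outside this rule, IFIT5, PARP9, IFITM2, RSAD2, TRIM21 and XAF1 are also given in full. So are the genes marked as named after their values were seen. Others are given by range, count or log2 fold change. Some results are not reported here. Promoters are RefSeq's (GRCh38.p14); DHX58, ZBP1, ZNFX1, UBA7, USP18, IFIT2, IFITM2, MX2 and TRIM22 have no entry in the table used. Of the 52 members, 12 overlap another coding gene in RefSeq.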

Additional observations from a re-analysis of the deposited data

Results flagged for a closer look

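Over 104 groups of 4 libraries (each member in each genotype), 6 had 1 library far from the other 3 by Dixon's test at the 95% level, and chance flags about 1 in 20 groups. ZBP1 was at 0 in all libraries but Control replicate 4 (0.942 normalized counts) and IRF8 KO replicate 1 (1.07), a single read each. MX2 was at 757 in IRF8 KO replicate 1, against 441 to 482 in the other knockout libraries. ADAR was at 16079.6 in IRF8 KO replicate 3, against 19235 to 19783. IFI35 was at 440.3 in Control replicate 3, against 508 to 516, and at 588 in IRF8 KO replicate 2, against 501 to 513. Of these members none was called between the genotypes.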

How the results depend on the processing

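All 11 higher and 5 lower members were called again with another pseudocount, without a filter, with quantile or upper quartile scaling, in edgeR, in DESeq2 and with the replicate block; a mean of at least 100 counts left IFIT1 and HERC5 untested. With the replicate block the counts grew to 20 higher and 9 lower members, 1857 and 1912 genes and 15 higher pathway genes. With the pair of replicates (1 and 3, or 2 and 4) as a covariate they were 22 and 9 members, 2157 and 2176 genes (1134 and 1253 without it), and 19 and 17 pathway genes (6 and 10 without it). Higher members numbered 15 with quantile scaling, 13 in edgeR and 16 in DESeq2, against 11 in the main fit, while the lower ones stayed at 5. The added members were IFIH1, DDX60 and SAMD9L (quantile scaling and DESeq2), TRIM21 (edgeR and DESeq2) and LGALS3BP (all of these). Higher pathway genes numbered 10 with quantile scaling and 12 in DESeq2. Without 1 library at a time, 10 to 13 members were higher and 1 to 6 lower: 1 without Control replicate 2, Control replicate 4 or IRF8 KO replicate 3, 2 without IRF8 KO replicate 4 and 3 without IRF8 KO replicate 1. Lower pathway genes ranged from 6 (without IRF8 KO replicate 3) to 10. ZNFX1 was called in all 8 of these fits, as were 10 of the 11 higher members. With quantile scaling 5 members in place of 9 differed at least 2-fold between the replicate pairs in both genotypes. The median log2 fold change of the members stayed between 0.23 and 0.39 under every setting. Of the single-gene values 1096 kept their side of the threshold, 50 gained and 43 lost a call, and no called value turned its direction; the cause of these changes was not tested. Depth limits the values of genes with few reads in Control, among them IFIT1, HERC5 and TLR3. Intervals cover the spread of 4 libraries a group.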

Other observations

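Among the interferon gamma associated genes, WARS, the tryptophanyl-tRNA synthetase, showed the replicate pairs most plainly (named after its values were seen). It stood at 7169, 40634, 7111 and 40713 normalized counts in Control replicates 1 to 4 and at 8685, 40766, 9747 and 49204 in IRF8 KO. Replicates 2 and 4 were above 1 and 3 by a log2 difference of 2.51 in Control and 2.28 in IRF8 KO, and the knockout difference was 0.25 ± 0.82 SE (limma adjusted p = 0.88). SLFN5, an interferon-induced gene of the Schlafen family that was also named after its values were seen, was at 337, 3177, 299 and 2345 in Control and at 481, 796, 299 and 877 in IRF8 KO. Its log2 difference between the replicate pairs was 3.10 in Control and 1.14 in IRF8 KO, and the genotypes were not called different in this (limma interaction term, adjusted p = 0.14). The knockout log2 fold change of SLFN5 was -0.72 ± 0.81 SE (limma adjusted p = 0.60).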
